A study of Mus musculus with 36 samples.

Results

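The genes of the cytosolic ribosomal proteins were followed in liver RNA of 36 mice. Members were chosen by symbol, as genes whose name begins with Rpl or Rps and a digit, or with Rplp and a digit, without the Rps6k kinases and without pseudogenes. Of 24421 genes, 104 symbols matched this pattern, and 87 members remained after 10 Rps6k genes and 7 pseudogenes were left out. By name they are 50 genes of the large subunit, among them the paralogue Rpl7l1, 33 of the small subunit, 3 of the stalk, and Rps19bp1, which encodes a binding partner of a ribosomal protein and matched by name only.

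All mice were male C57BL/6J, bought at 7 weeks of age, and had first eaten a choline-deficient high-fat diet (CDAHFD), which causes steatohepatitis, for 12 weeks. For 2 further weeks they ate a high-fat diet (HFD), with an injection each week, or for 10 days a standard diet, with injections on days 1, 4 and 7. Each diet had a control arm given 4.3 mg/kg of Fc, the crystallizable fragment of human IgG (n = 10 under HFD, n = 9 under the standard diet), and an arm in which Fc(mML1)B3 was given at 5 mg/kg (n = 10 and n = 7). Fc(mML1)B3 carries in a loop of Fc a peptide by which it binds and activates mouse Met, the receptor of hepatocyte growth factor, and both proteins went under the skin. No mouse on an untreated or healthy control diet is among these groups. Experiment, diet, dosing and duration change together between the 2 diets and cannot be told apart. Each library is 1 mouse, with 14949035 to 28466853 counts. All 8 hepatocyte markers, such as Alb and Apoa1, were read in every library, and their summed level was 75663 to 152938 CPM (a gene's counts relative to the library's total, on 1 fixed scale, here with TMM library factors).

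The eukaryotic ribosome is built of a small subunit, which reads the mRNA, and a large subunit, which joins amino acids, with an acidic stalk (Rplp0, Rplp1 and Rplp2) that recruits elongation factors. Most ribosomal protein mRNAs begin with a C followed by a run of pyrimidines, the TOP sequence, through which mTORC1 and Larp1 control their translation. Assembly takes place in the nucleolus and needs RNA polymerase I and many factors that are not part of the finished ribosome.

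The starts of the members are shown because this sequence defines TOP mRNAs. RefSeq promoters on GRCm38.p6 were found for 66 of the 87 members, in 78 entries of 300 bases that reach from 250 before the start to 50 after it. A C and at least 4 further pyrimidines stood exactly at the annotated start in 17.9% of the 78 entries and in 2.51% of all 32851 promoters. A C with at least 6 further pyrimidines, anywhere within 15 bases either side of the start, was present in 42.3% of the member entries and in 14.2% of all promoters. The 30 bases around the start, written in the direction of transcription with the longest such pyrimidine run in capitals, are given for 2 members with a run and for 2 members without one whose levels changed below.
Rps18, chr17:33955651-33955680, minus strand: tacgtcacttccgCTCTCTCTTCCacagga
Rpl13a, chr7:45128731-45128760, minus strand: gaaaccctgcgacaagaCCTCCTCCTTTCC
Rpl7l1, chr17:46782642-46782671, minus strand: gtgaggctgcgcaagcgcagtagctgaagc
Rps13, chr7:116334176-116334205, minus strand: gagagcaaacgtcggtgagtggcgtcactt
The RefSeq start of Rps18 lies 24 bases from the start of the gene in the deposited annotation, and for the other 3 the positions are identical. Within the 300 bases, CCGGAAG, the core bound by ETS factors, was found on either strand in 33.3% of the member entries and in 8.86% of all promoters. The letters AAGATGGC, a YY1-type core that can share 3 bases with the former, were found in 10.3% and 2.75%. These matches describe the annotated windows only.

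Levels of different genes are given per annotated exon length and as counted. Reads with several alignments were not counted, and 30% of the 100-base windows of Rplp1 and 28.5% of those of Rps2 occur elsewhere, so the order of genes is approximate. In CPM per kb, averaged over the libraries, the highest values were those of Rplp1 (768), Rps18 (747), Rps2 (624), Rpl28 (592) and Rpl10 (592). The stalk protein Rplp0, a common qPCR reference, stood at 397 CPM per kb and Rplp2 at 325. Among the other usual references, Rpl13a stood at 408 and Rpl32 at 432 CPM per kb.

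The paralogue genes differed from their parents in level. Rpl3l, a gene of striated muscle, stood at 0.0415 CPM per kb against 217 for Rpl3. Rpl39l, known from testis, stood at 0.0399 against 245 for Rpl39. Rpl10l, also a testis gene, had 0 reads in all 36 libraries, which at 3 counts allows at most 0.201 CPM in the smallest library, whereas Rpl10 stood at 592 CPM per kb. Rpl36al stood at 251 CPM per kb beside 163 for Rpl36a, with 8.82% and 19.5% of their windows elsewhere. Rpl22l1 stood at 67.0 CPM per kb beside 52.2 for Rpl22, an order that comes from the division by 477 and 2497 bases. Rps27l, a p53 target, stood at 325 CPM per kb and has no usable parent value, since Rps27 is undercounted, as described next. Rpl7l1, whose yeast relative acts in assembly of the large subunit, stood at 25.6 CPM per kb beside 386 for Rpl7. Lower than their parents were also Rps4l at 18.4 beside 433 for Rps4x, and Rpl37rt at 7.47 beside 232 for Rpl37.

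Some core ribosomal protein genes had almost no reads. Rpl26, a large subunit protein found in every ribosome, had 0 reads in all 36 libraries. Rpl30 had 4 to 17 reads per library, Rps27 had 2 to 22, and Rpl34 had 13 to 51. In the annotation of the deposited files, 95.8% of the exonic bases of Rpl26 are shared with Gm15772, 76.0% of those of Rpl30 with Gm12191, 60.0% of those of Rps27 with Rps27rt, and 59.9% of those of Rpl34 with Rpl34-ps1. All bases of Rps27rt (100%) are shared with Rps27, and it too had 0 reads. Reads that fall on more than 1 gene are not counted by the settings the authors used, so these 5 values do not measure the amount of mRNA. Rpl5 (47.7% shared with Fam69a), Rpl31 (33.1% with Tbc1d8) and Rps25 (29.4% with Ccdc84) also share exons but kept 88.9, 105 and 386 CPM per kb.

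**Figure D1:**
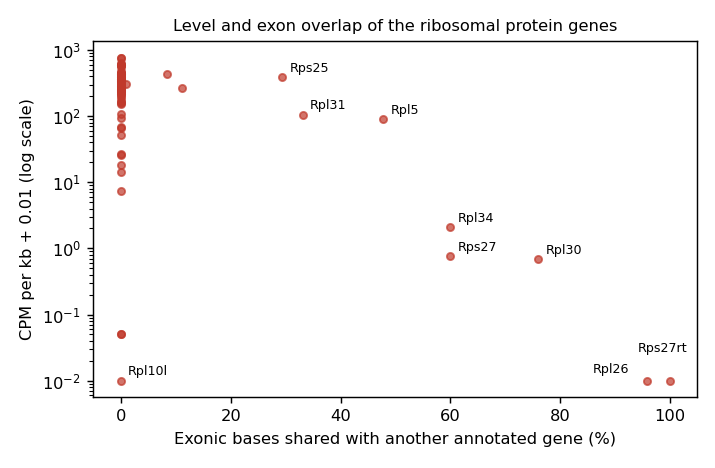
Each point is 1 of the 87 genes, with the share of its exonic bases that another annotated gene covers (%, horizontal). Its level is the mean of the 4 group means (CPM per kb plus 0.01, log scale, vertical). The 4 members of 59.9% to 95.8% overlap lie at or below 2.06 CPM per kb, and Rpl10l, Rpl39l and Rpl3l are low with no overlap.

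Ribosomal protein genes have many processed pseudogenes. Of the 100-base windows of their transcripts, 46.3% for Rpl24, 45.6% for Rpl23a and 40.7% for Rps6 occur exactly in a transcript from another place. Windows were pooled over every annotated transcript of a gene, 6891 for Rps24 with 875 exonic bases in the deposited files. A low share of windows elsewhere therefore need not hold for the main mRNA. Levels are best compared for 1 gene across mice, and the levels of different genes above carry this limit.

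The share of counts on the 87 genes was 1.68% to 2.4% (median 1.96%) in Fc mice under HFD and 1.53% to 2.52% (median 2.01%) in Fc(mML1)B3 mice under HFD. On the standard diet it was 1.35% to 1.74% (median 1.6%) in Fc mice and 1.42% to 1.74% (median 1.61%) in Fc(mML1)B3 mice. The ratio of the medians, standard diet to HFD, was 0.815 in Fc mice and 0.800 in Fc(mML1)B3 mice. Within a diet the groups overlapped, and most standard diet mice lay at the lower end of the HFD mice or below them.

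**Figure D2:**
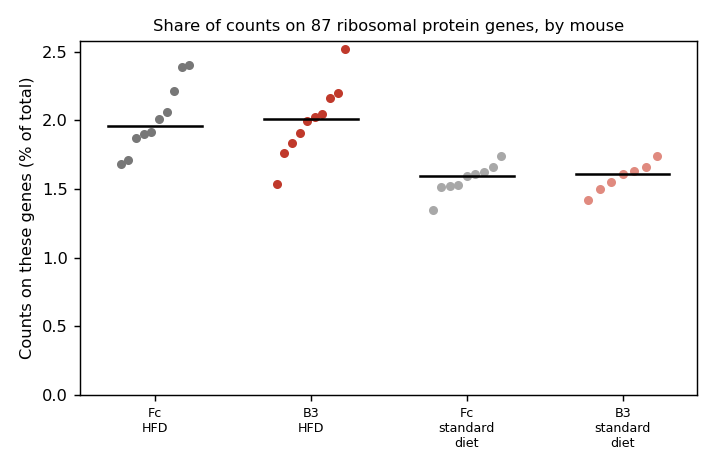
Share of all counts on the 87 members, Rps19bp1 included (%, vertical), in each mouse (points, ordered by value within a group), with the group median as a bar. B3 stands for Fc(mML1)B3. The medians are 1.96% and 2.01% under HFD and 1.6% and 1.61% under the standard diet.

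In TMM-normalised CPM many members had their extreme value in the same mouse. Of 82 members, Fc mouse 9 under HFD was lowest of its group for 61, and Fc mice 7 and 3 were highest for 40 and 27. Fc(mML1)B3 mouse 6 under HFD was lowest for 58 and mouse 2 highest for 53. By share of all counts, mouse 5 of that group was highest, at 2.52% beside 2.2% for mouse 2. Mouse 5 also had the lowest hepatocyte marker sum of all libraries (75663 CPM) and the highest stellate cell marker sum (1541 CPM). Without it the comparison under HFD given next had 2 members higher and a median of 0.07, with Rpl7l1 at 0.44, and the comparison of diets in Fc(mML1)B3 mice had 61 members lower and a median of -0.30. Under the standard diet, Fc mouse 4 was lowest for 64, while the highest values were split, with 26 in mouse 2, 23 in mouse 7 and 17 in mouse 6. There, Fc(mML1)B3 mouse 5 was highest for 59 and Fc(mML1)B3 mouse 7 lowest for 56. The median coefficient of variation of the members was 15.5% and 14.4% in the HFD groups and 7.07% and 6.95% in the standard diet groups. Other genes above 50 CPM had 13.2% in both HFD groups, and 7.35% and 6.56% under the standard diet. This limit was not applied to the 82 members, some of which have few reads. Rpl4 varied least in all 4 groups. The ratio of large to small subunit counts moved little, between 1.25 and 1.34 over all libraries.

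Whether activation of Met changed the mRNAs of the ribosome was asked first under HFD. Of 80 members tested, 1 rose, Rpl7l1, and 0 fell (edgeR, adjusted p below 0.05). Over all 13299 genes tested, 14.8% passed, 8.14% higher and 6.68% lower. At an unadjusted p below 0.05, 3 members were higher and 0 lower, whereas 3966 of all genes differed. DESeq2 called 2 higher and limma-voom 3, and both called 0 lower.

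Rpl7l1 was 49.2 to 70.1 CPM (median 60.4) in Fc mice and 69.7 to 92.4 CPM (median 78.1) in Fc(mML1)B3 mice. The ranges overlapped only at their edges. The log2 fold change was 0.42 (SE 0.08, edgeR adjusted p = 0.0006). The file names carry 2 runs of sample-sheet numbers within the Fc(mML1)B3 group, and against all Fc mice the change was 0.38 (edgeR adjusted p = 0.0332) for mice 1 to 4 and 0.44 (edgeR adjusted p = 0.00261) for mice 5 to 10. The exons of Rpl7l1 overlap no other gene, and 1.22% of its windows occur elsewhere.

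No other member passed the test under HFD. The next smallest p-values belonged to Rps19bp1 at 0.28 (SE 0.10, edgeR adjusted p = 0.054), Rpl34 at 0.50 (SE 0.19, adjusted p = 0.073), Rpl36al at 0.17 (SE 0.09) and Rpl35a at 0.15 (SE 0.09). Rpl34 rests on at most 51 reads a library. Below 0, the smallest p-values were those of Rpl37rt at -0.11 (SE 0.17), Rps4l at -0.10 (SE 0.18), Rpl22l1 at -0.04 (SE 0.11), Rps15a at -0.02 (SE 0.09) and Rps28 at -0.01 (SE 0.12). Each of these lies within 1 standard error of 0. The half-width of the 95% interval of a member had a median of 0.20 on the log2 scale with 10 mice a group.

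The median log2 fold change of the 80 members was 0.08, beside -0.01 for all genes tested, and 72 of them were above 0. Other genes of at most 1000 bases had a median of 0.03 (460 of 836 above 0). Mitochondrial ribosomal protein genes had a median of 0.08 (61 of 77 above 0), so the shift was not particular to the members. Without TMM factors all genes shifted, to a median of -0.10, and the members to -0.02, with 48 of 80 below 0. Relative to the median of all genes the members stood 0.09 higher with and without these factors. With Fc(mML1)B3 mice 1 to 4 alone 79 of 82 were above 0 (median 0.24, all genes -0.02). With mice 5 to 10 alone 54 of 80 were below 0 (median -0.03, all genes -0.0017).

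On the standard diet 0 of 80 members were called in either direction by edgeR, where 16.1% of 13570 genes were (8.56% higher and 7.55% lower). At an unadjusted p below 0.05, 6 members were higher and 0 lower, whereas 3974 of all genes differed, and DESeq2 called 1 higher, limma-voom 2, and neither called any lower. Rpl24, a large subunit protein at the bridge to the small subunit, came nearest. It was 136.6 to 166 CPM (median 150) in Fc mice and 147 to 190 CPM (median 173) in Fc(mML1)B3 mice, a log2 fold change of 0.16 (SE 0.06, edgeR adjusted p = 0.058). The groups overlapped, and 46.3% of the windows of Rpl24 occur elsewhere. Rpl17 at 0.13 (SE 0.05), Rpl8 at 0.11 (SE 0.04), Rps13 at 0.10 (SE 0.04) and Rpl9 at 0.10 (SE 0.05) followed. Below 0 stood Rps4l at -0.14 (SE 0.13), Rpl23a at -0.05 (SE 0.05), Rpl22 at -0.03 (SE 0.05), Rpl37rt at -0.05 (SE 0.12) and Rplp1 at -0.03 (SE 0.06).

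The median of the 80 members under the standard diet was 0.04, beside -0.01 for all genes, and 71 were above 0. Sets like the members moved at least as far. Other genes of at most 1000 bases had a median of 0.06 (580 of 867 above 0), and mitochondrial ribosomal protein genes 0.10 (67 of 77 above 0). Without TMM factors 51 of 80 members were above 0 and their median was 0.0075 (all genes -0.05). Relative to all genes the members stood 0.06 and 0.05 higher with and without these factors. Against the Fc mice 6 to 9 alone, whose sheet numbers run on into those of the Fc(mML1)B3 mice, 52 of 81 were above 0 and the median was 0.01. The 95% half-width of a member was 0.10 in the median. Of all genes tested, 0.511% lay wholly higher and 0.399% wholly lower in Fc(mML1)B3 mice than in Fc mice under HFD, and 1.82% and 1.11% did so on the standard diet, while 0 members did in either diet. In the same comparisons, 3 of 3 neutrophil markers tested and 1 of 9 lymphocyte markers fell under HFD, where 6.68% of all genes did. The summed neutrophil level was 64.5 and 59.6 CPM in Fc mice 7 and 8 under HFD. Its medians were 16.8 CPM in Fc mice and 12.2 CPM in Fc(mML1)B3 mice. On the standard diet 2 of 8 stellate cell markers and 1 of 5 cholangiocyte markers fell, where 7.55% of all genes did. Of the Kupffer cell or macrophage and the endothelial markers, 0 were called in either diet. Of 8 hepatocyte markers 1 rose under HFD, and 1 rose and 1 fell on the standard diet. The part of these cell types in the member values was not tested.

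**Figure D3:**
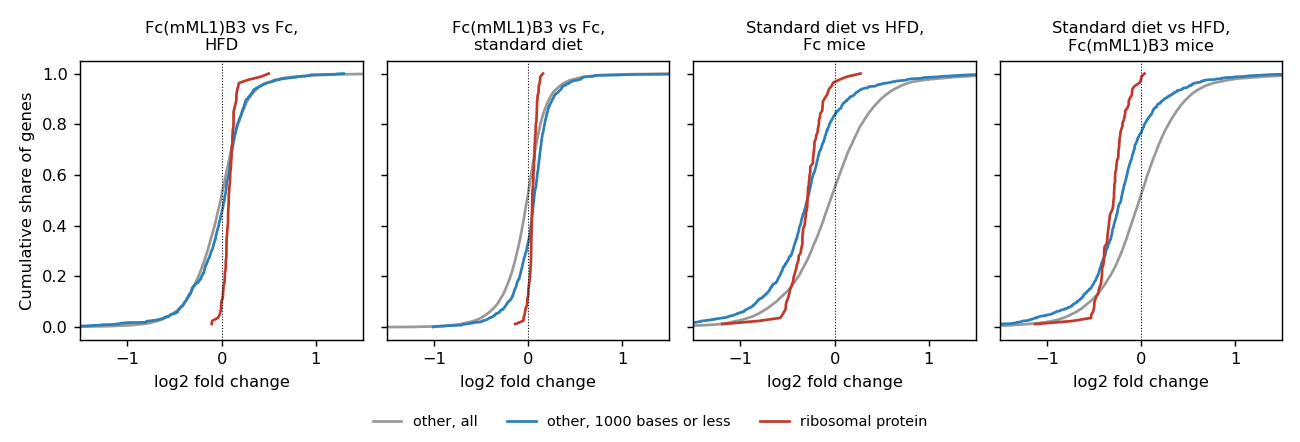
Cumulative share of genes (vertical) by log2 fold change (horizontal, drawn from -1.5 to 1.5) in 4 comparisons. Shown are the members, Rps19bp1 included (red), other genes of at most 1000 bases (blue) and all other genes (grey). The red curves lie just right of 0 in both comparisons of Fc(mML1)B3 with Fc (medians 0.08 and 0.04), where the blue medians are 0.03 and 0.06. They lie left of 0 in both comparisons of diets (medians -0.29), where the blue curves shift too.

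Rpl7l1 also differed between the diets in its response. On the standard diet it was 56.0 to 71.4 CPM (median 61.9) in Fc mice and 59.1 to 69.1 CPM (median 65.6) in Fc(mML1)B3 mice, a log2 fold change of 0.07 (SE 0.05, edgeR adjusted p = 0.39). The interaction of protein and diet was -0.33 (SE 0.09, edgeR adjusted p = 0.0149). It was the only edgeR call among 82 members, with 1 lower and 0 higher, whereas 9.06% of 14105 genes passed, 4.66% higher and 4.4% lower. At an unadjusted p below 0.05 there was also 1 lower and 0 higher, and DESeq2 and limma-voom each called 1 lower and 0 higher. The member median of the interaction was -0.01. The call rests on the 4 groups as they are, with diet, dosing and experiment confounded.

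The genes that assemble the ribosome were described beside the members, using a list of 21 factors of ribosome biogenesis and RNA polymerase I. Under HFD 9 of the 21 rose with Fc(mML1)B3 and 0 fell, with a median of 0.22, where 8.14% of all genes tested rose. The count under HFD was 4 without TMM factors and 5 with Fc(mML1)B3 mice 5 to 10 alone. On the standard diet 12 of 21 rose and 0 fell, with a median of 0.23, where 8.56% of all genes rose. At an unadjusted p below 0.05, 12 and 15 of the 21 differed, as did 3966 of 13299 and 3974 of 13570 genes.

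Nolc1, a nucleolar chaperone of small nucleolar RNPs, was 16.8 to 39.3 CPM (median 27.8) in Fc mice and 35.5 to 54.8 CPM (median 42.7) in Fc(mML1)B3 mice under HFD. On the standard diet it was 23.2 to 32.6 CPM (median 25.4) and 33.9 to 47.5 CPM (median 38.2), with no overlap of the groups. The log2 fold changes were 0.68 (SE 0.12, edgeR adjusted p = 0.00032) and 0.56 (SE 0.08, edgeR adjusted p = 6.7e-05). Bysl, a factor of small subunit assembly, rose by 0.58 (SE 0.11) under HFD and 0.34 (SE 0.08) under the standard diet. Wdr12, which works with Pes1 and Bop1 on the large subunit, rose by 0.38 (SE 0.08) and 0.22 (SE 0.07). Nop56, a core protein of box C/D RNPs, rose by 0.36 (SE 0.10) and 0.45 (SE 0.07).

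Other assembly factors responded in 1 diet. Rrn3, which brings RNA polymerase I to its promoter, was 21.7 to 28.5 CPM (median 22.7) in Fc mice and 28.9 to 40.7 CPM (median 33.3) in Fc(mML1)B3 mice on the standard diet. Under HFD it was 21.5 to 25.7 CPM (median 23.4) and 21.1 to 28 CPM (median 23.7). Its groups were separate under the standard diet and mixed under HFD, and the interaction was 0.48 (SE 0.10, edgeR adjusted p = 0.00078). Ncl, nucleolin, gave an interaction of 0.21 (SE 0.07, edgeR adjusted p = 0.045), with a rise of 0.23 (SE 0.04) under the standard diet. Bop1 went the other way, with an interaction of -0.34 (SE 0.11, edgeR adjusted p = 0.036) and a rise of 0.35 (SE 0.08) under HFD.

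**Figure D4:**
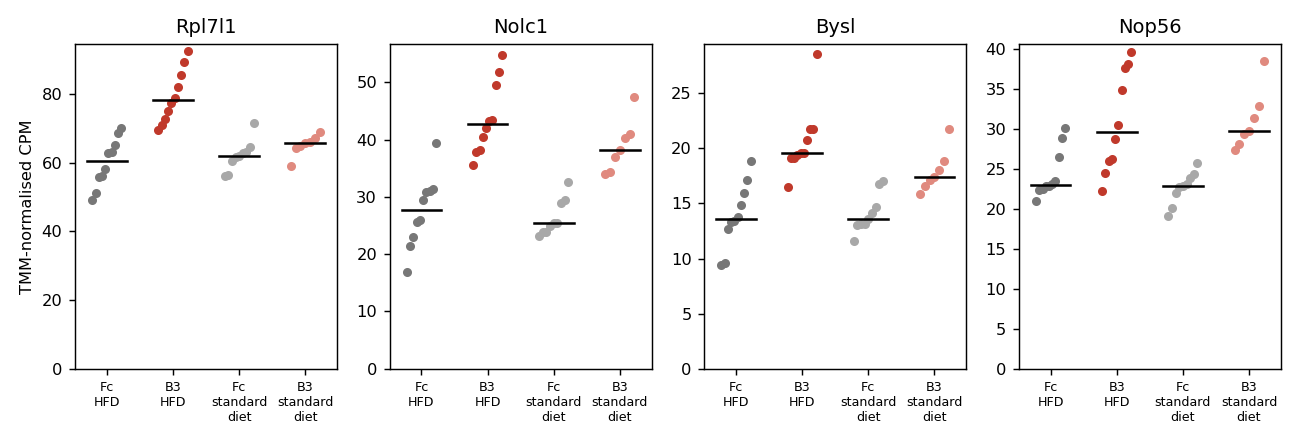
TMM-normalised CPM (vertical, from 0) of Rpl7l1 and 3 assembly factors in each mouse (points, ordered by value within a group), with the group median as a bar. B3 stands for Fc(mML1)B3. Rpl7l1 is higher with Fc(mML1)B3 under HFD (median 78.1 beside 60.4), while Nolc1, Bysl and Nop56 are higher under both diets.

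Other lists of the translation machinery were compared in the same way. Of 15 translation factors and other TOP mRNAs, 0 rose and 1 fell under HFD, and 1 rose and 0 fell under the standard diet. These were Eif4b, an initiation factor, at -0.25 (SE 0.07, edgeR adjusted p = 0.017), and Eef1g, an elongation factor subunit, at 0.12 (SE 0.04, edgeR adjusted p = 0.046). The median of the list was 0.08 and 0.06. Of 15 genes of mTORC1 and TOP regulation, Larp1 rose by 0.27 (SE 0.08) under HFD. Rps6kb1 rose by 0.31 (SE 0.05) on the standard diet, Rheb by 0.13 (SE 0.04) and Ddit4, an inhibitor of mTORC1, by 0.60 (SE 0.20), and Tsc1, also an inhibitor of the pathway, fell by 0.35 (SE 0.06). The called share of this list was 6.67% under HFD and 26.7% on the standard diet, beside 14.8% and 16.1% of all genes. Of the 77 mitochondrial ribosomal protein genes, 2 rose under HFD (2.6%, beside 8.14% of all genes) and 17 on the standard diet (22.1%, beside 8.56%), and 0 fell in either. Mrpl15 at 0.34 (SE 0.05) had the smallest p under the standard diet and Mrpl4 at 0.37 (SE 0.08) under HFD.

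The 2 diets were compared next, within the mice that received the same protein. Of 82 members, 61 were lower under the standard diet in Fc mice and 0 higher (edgeR, adjusted p below 0.05), where 24.6% of all 14105 genes were lower and 47.9% differed. The median log2 fold change was -0.29, beside -0.05 for all genes. In Fc(mML1)B3 mice 62 of 82 were lower and 0 higher, where 17.9% of all genes were lower and 38.5% differed. The median was -0.29, beside -0.02. For higher values, the count at an unadjusted p below 0.05 was 0 in both, as were the calls of DESeq2 and limma-voom. Reads on the 7 pseudogenes left out were 0.00094% to 0.0022% of counts under HFD and 0.00046% to 0.00087% under the standard diet. They were few, at 120 to 422 a library, and their relation to the member values was not tested. In liver RNA, fewer cells of a type and less RNA per cell cannot be told apart.

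Both subunits shared this shift. In Fc mice 35 of 46 large subunit members and 23 of 32 small subunit members were lower, with medians of -0.29 and -0.30, and in Fc(mML1)B3 mice 35 and 23 were lower, with medians of -0.28 and -0.30. All 3 stalk genes were lower in both. Rplp0 was 417 to 702 CPM (median 578) in Fc mice under HFD and 434 to 500 CPM (median 477) under the standard diet. The log2 difference was -0.29 (SE 0.07, edgeR adjusted p = 0.0016), and in Fc(mML1)B3 mice it was -0.35 (SE 0.08, edgeR adjusted p = 0.00065). Of the other qPCR references, Rpl32 was lower, at -0.23 (SE 0.08) and -0.26 (SE 0.08), and Rps18 was lower in Fc mice, at -0.21 (SE 0.09, edgeR adjusted p = 0.038). Rps18 did not pass in Fc(mML1)B3 mice, at -0.18 (SE 0.09), nor did Rpl13a in either, at -0.16 (SE 0.08) and -0.17 (SE 0.09).

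Rps28, a small subunit protein near the mRNA exit, was 124 to 180 CPM (median 156) in Fc mice under HFD and 75.6 to 96.8 CPM (median 84.3) under the standard diet. The groups did not overlap. The difference was -0.81 (SE 0.10, edgeR adjusted p = 2.7e-08). In Fc(mML1)B3 mice Rps28 was 90.1 to 196 CPM (median 152) and 75 to 108 CPM (median 91.3), which overlapped, with a difference of -0.73 (SE 0.11, edgeR adjusted p = 1.3e-06).

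Rps13, another small subunit protein, was 138 to 196 CPM (median 164) and 102 to 120 CPM (median 107) in Fc mice, a difference of -0.58 (SE 0.07, edgeR adjusted p = 3.5e-08). In Fc(mML1)B3 mice it was 129 to 208 CPM (median 174) and 110 to 128 CPM (median 120), a difference of -0.50 (SE 0.08, edgeR adjusted p = 3.2e-06). Its diet groups were separate with both proteins. Rps16, of the small subunit head, differed by -0.55 (SE 0.10) and -0.53 (SE 0.11). Rpl37rt had the largest difference, -1.19 (SE 0.15, edgeR adjusted p = 7.6e-08) and -1.13 (SE 0.17, edgeR adjusted p = 1.4e-06), from medians of 8.51 and 6.73 CPM to 3.50 and 3.41 CPM. It rests on 55 to 212 reads a library, and 24.5% of its windows occur elsewhere.

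**Figure D5:**
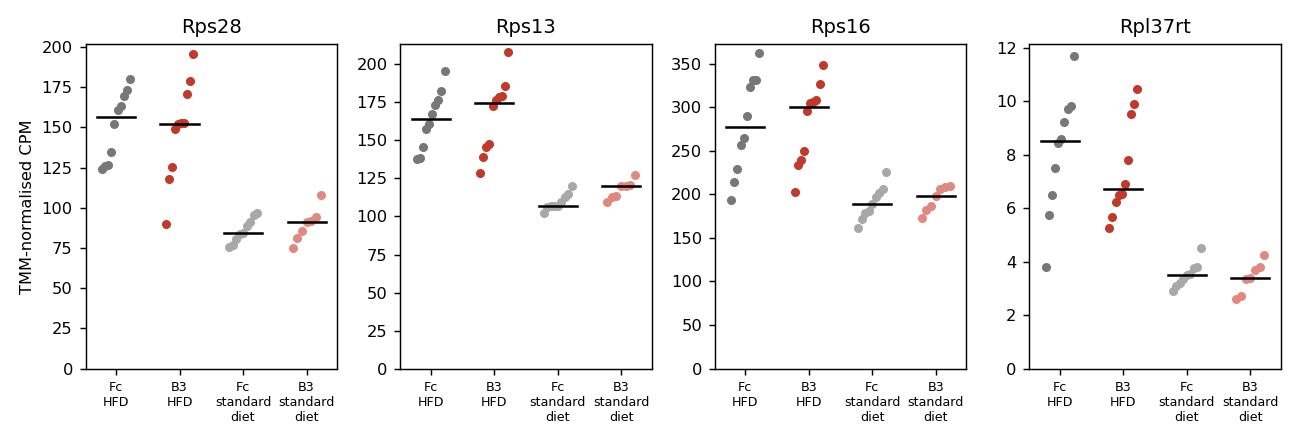
TMM-normalised CPM (vertical, from 0) of the members with the largest differences between diets, in each mouse (points, ordered by value within a group), with the group median as a bar. B3 stands for Fc(mML1)B3. Rps28 falls from a median of 156 to 84.3 CPM in Fc mice, and Rps13 is lower in every standard diet mouse than in every HFD mouse with the same protein.

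The values of 3 members did not overlap between diets in Fc mice (Rpl23, Rps28 and Rps13, all lower), where 1.95% of all genes were lower and 7.47% higher without overlap. In Fc(mML1)B3 mice 13 did not, all lower, where 2.6% of all genes were lower and 7.3% higher in this way. Some members did not pass. In Fc mice Rpl7l1 differed by 0.05 (SE 0.06, edgeR adjusted p = 0.53), but it was lower in Fc(mML1)B3 mice, at -0.28 (SE 0.07, edgeR adjusted p = 0.00092). Rpl4 differed by -0.07 (SE 0.05) in Fc mice and passed in Fc(mML1)B3 mice at -0.13 (SE 0.05, edgeR adjusted p = 0.046). Of the paralogues, Rpl22l1 was lower with both proteins, at -0.34 (SE 0.11) and -0.32 (SE 0.11), and Rps27l was lower in Fc(mML1)B3 mice, at -0.27 (SE 0.08), beside -0.17 (SE 0.08, edgeR adjusted p = 0.068) in Fc mice. Rpl7 passed in neither, at -0.08 (SE 0.08) and -0.10 (SE 0.08).

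The members are short, with a median annotated length of 710 bases beside 2194 for all genes, and 68 of the 87 have at most 1000 bases. Other genes of at most 1000 bases were lower under the standard diet as well. Of 940 such genes tested, 458 were lower and 39 higher in Fc mice (median -0.29), and 327 were lower and 42 higher in Fc(mML1)B3 mice (median -0.21). Among the members, 15 of 16 of at most 500 bases, 35 of 49 of over 500 to 1000 bases and 11 of 17 longer ones were lower in Fc mice, with medians of -0.34, -0.29 and -0.23. In Fc(mML1)B3 mice the counts were 15, 35 and 12 and the medians -0.35, -0.30 and -0.28. The part of gene length in the difference between diets was not tested. Of 29 tested members with no shared exonic base and under 10% of windows elsewhere, 20 were lower in Fc mice and 23 in Fc(mML1)B3 mice. These windows were pooled over all transcripts of a gene, so the limit does not show that the main mRNA of each aligns uniquely. Members with a pyrimidine run near the start and those without had medians of -0.29 (22 of 31 lower) and -0.29 (24 of 30 lower) in Fc mice, and of -0.29 (24 of 31) and -0.35 (24 of 30) in Fc(mML1)B3 mice.

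Genes related by function were compared between diets as well, where 47.9% of all genes differed in Fc mice and 38.5% in Fc(mML1)B3 mice. Fau, which encodes a small subunit protein fused to a ubiquitin-like protein, was lower in both, at -0.41 (SE 0.10) in Fc mice and -0.31 (SE 0.10) in Fc(mML1)B3 mice. Rpsa, of the small subunit, was lower at -0.17 (SE 0.07) and -0.27 (SE 0.07). Of 77 mitochondrial ribosomal protein genes, 38 were lower and 2 higher in Fc mice (median -0.19), and 30 were lower and 3 higher in Fc(mML1)B3 mice (median -0.14). Of the 15 translation factors and TOP mRNAs, 9 were lower in Fc mice and 4 in Fc(mML1)B3 mice, among them Tpt1 at -0.35 (SE 0.06) and -0.46 (SE 0.07), and 1, Eif4b, was higher at 0.39 (SE 0.06) and 0.61 (SE 0.06). Of the 15 genes of mTORC1 and TOP regulation, 12 were higher and 2 lower in Fc mice, and 7 higher and 1 lower in Fc(mML1)B3 mice. The called shares in Fc and Fc(mML1)B3 mice were 51.9% and 42.9% for the mitochondrial list, 66.7% and 33.3% for the translation factors, and 93.3% and 53.3% for the mTORC1 list. Mtor was higher by 0.64 (SE 0.07) and 0.71 (SE 0.08), and Eif4ebp2, a repressor of cap-dependent translation, by 0.95 (SE 0.15) and 0.81 (SE 0.16). Of the 21 biogenesis factors, 2 were higher and 5 lower in Fc mice (33.3% called, beside 47.9% of all genes), and 4 were higher and 4 lower in Fc(mML1)B3 mice (38.1%, beside 38.5%). Polr1a, the largest subunit of RNA polymerase I, was higher by 0.44 (SE 0.07) and 0.46 (SE 0.07), whereas Gar1, of H/ACA RNPs, was lower, at -0.65 (SE 0.10) and -0.49 (SE 0.11).

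Markers of liver cell types were compared between diets too, where 47.9% of all genes differed in Fc mice and 38.5% in Fc(mML1)B3 mice, and most marker lists had a called share near or below that. In Fc mice 7 of 9 lymphocyte markers were lower under the standard diet (median -0.85), and their summed level was 30.4 to 77.5 CPM under HFD and 28.7 to 44.2 CPM under the standard diet. In Fc(mML1)B3 mice 2 were lower and 1 higher, at 26.1 to 52.9 and 28.2 to 44.3 CPM. Of 8 stellate cell markers, 5 and 4 were lower, with summed levels of 760 to 1386 and 627 to 954 CPM in Fc mice. Of 8 Kupffer cell or macrophage markers 3 and 1 were lower, of 5 cholangiocyte markers 2 and 2, and of 6 endothelial markers 0 and 0, with 1 and 1 higher. Of 4 neutrophil markers tested, 1 and 0 were lower, and Mpo and Elane were at 0 in some libraries. Of 8 hepatocyte markers 4 and 2 were higher and 0 lower. The part of cell composition in the member values was not tested.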

How the data were processed

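Liver RNA libraries were made with a strand-keeping kit and sequenced as pairs of 100-base reads. According to the methods, the authors trimmed reads with fastp, removed ribosomal RNA with Bowtie2 2.4.5, aligned to mm10 with STAR 2.7.10a and counted reads per gene with featureCounts of Subread 2.0.3. The deposited values are raw counts. Each end was counted as a read, both ends had to align, strand was not used, and reads with several alignments or on several genes were not counted.

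From these counts, edgeR 4.0.16 in R 4.3.3 (TMM, filterByExpr, quasi-likelihood F-test, Benjamini-Hochberg adjustment over all genes tested, threshold 0.05) was fitted within each diet for Fc(mML1)B3 against Fc, and over all 4 groups for the interaction and the diets. Groups came from the sample titles. A standard error was obtained as the size of the log2 fold change over the root of F. CPM used TMM factors over all 36 libraries, and p-values measure the spread between mice. Among 147 pairs within groups, none had identical or near-identical counts. Windows of 100 bases used all GENCODE vM21 transcripts of a gene together, and overlap used the files' own exons. 80 members passed the filter within a diet and 82 over all groups. Rpl26, Rpl10l, Rpl39l, Rpl3l and Rps27rt passed in none, and Rpl30 and Rps27 only over all groups.

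Named were the called members with the largest changes or else the smallest p, stalk and reference genes, paralogues, the extremes of level, members under the filter, and up to 4 genes of each list. Rpl4, Rpl5, Rpl23, Rpl31, Rps6 and Rps25 were named after their values were seen. The members and lists were chosen with earlier results of these data known. Alternatives were DESeq2 1.42.0, limma-voom (limma 3.58.1), other scalings, filters and thresholds, runs of sheet numbers, the replicate number as a block, and leaving out every library in turn. Those for the biogenesis list were added after seeing the data.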

Additional observations from a re-analysis of the deposited data

Results flagged for a closer look

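The summed level of the 87 genes in Fc mouse 4 under the standard diet was 14074 CPM, while the other 8 mice of that group ranged from 15470 to 16670 CPM, a gap that made it stand apart from its group. The same mouse stood apart for Rps15a, at 95 CPM against 113 to 131.1 CPM in the others. Fc mouse 8 under the standard diet stood apart for Rps27, at 0.645 CPM against 0.194 to 0.390 CPM, a gene with at most 22 reads in any library. These were 3 of 124 groups of values checked, and chance alone would mark about 1 in 20.

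The effect of Fc(mML1)B3 on Rpl7l1 differed between the diets by -0.33 on the log2 scale, by the interaction term over all 36 libraries.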

How the results depend on the processing

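Leaving out 1 library at a time gave 1 to 3 members higher and 0 lower under HFD, with medians of 0.04 to 0.11. The count was 3 without Fc mouse 7 and 2 without Fc mouse 3 or 4 or Fc(mML1)B3 mouse 5 or 8. On the standard diet it gave 0 to 1 higher, 1 without Fc mouse 7 or Fc(mML1)B3 mouse 1 or 7, with 0 lower and medians of 0.03 to 0.07. The interaction gave 1 lower and 0 higher in all 36 fits, with medians of -0.06 to 0.01. The diets gave 53 to 64 lower in Fc mice and 56 to 66 in Fc(mML1)B3 mice, 0 higher, with medians of -0.32 to -0.25 and -0.32 to -0.28. Of the biogenesis list, 6 to 10 genes were higher under HFD and 9 to 13 under the standard diet. Of the 61 and 62 members lower between diets, 53 and 55 passed in every such fit, and Rpl7l1 passed in all 20 fits under HFD. Values near 0 changed sign between fits, with Rps4l at -0.17 to 0.038, Rpl22l1 at -0.083 to 0.0040, Rps15a at -0.049 to 0.031 and Rps28 at -0.060 to 0.051 under HFD, and Rpl37rt at -0.11 to 0.0040 and Rplp1 at -0.057 to 0.016 on the standard diet.

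DESeq2 called 2 members higher under HFD and 1 under the standard diet, and limma-voom 3 and 2. With a limit on fold change added, above 2 at an adjusted p below 0.1 under HFD and above 1.5 in the other comparisons, 0 members were called under HFD, 0 in the interaction and 2 lower in each comparison of diets, and 0 biogenesis genes under either diet. With mice 1 to 4 of Fc(mML1)B3 alone the HFD median was 0.24, and Rpl22l1, Rps15a and Rps28 turned to 0.19, 0.11 and 0.20. The biogenesis genes higher under HFD numbered 4 without TMM factors and 5 with mice 5 to 10 alone.

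The replicate numbers do not pair the mice: same-numbered libraries correlated at -0.67 to 0.36 under HFD, over 0.1 in 2 of 10 pairs, and at -0.19 to -0.01 under the standard diet. No library correlated best with its own number. With the number as a block, 1 member was higher under HFD, 5 biogenesis genes were higher, and 0 members passed the interaction, where Rpl7l1 was -0.33 with an edgeR adjusted p of 0.0797. A block within diet could not be fitted for the comparisons of diets. Counting without multi-mapping reads or reads on several genes limits all levels, and most of all Rps27rt, Rpl26, Rpl30, Rps27 and Rpl34.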
